A study of Mus musculus with 42 samples.

Results

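Sertoli cells are the somatic cells of the seminiferous tubule. They enclose and feed the developing germ cells, form the blood-testis barrier through tight junctions, answer to follicle-stimulating hormone (FSH) and to testosterone, and release inhibin B, which lowers FSH secretion by the pituitary. The genes described here are 10 that mark these cells or carry out these tasks: the transcription factors *Sox9*, *Wt1* and *Gata4*, the secreted factors *Amh*, *Inha*, *Inhbb* and *Dhh*, the FSH receptor *Fshr*, the tight junction gene *Cldn11* and the androgen-regulated homeobox gene *Rhox5*. They were taken by symbol from the deposited table, where 10 of 10 were found among 26653 genes per tissue. *Fshr* and *Amh* code for classic Sertoli cell products, while *Gata4* is also made in Leydig cells and heart muscle and *Cldn11* also in the myelin-forming cells of the central nervous system.

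The study sequenced polyA RNA of the testes, of heart, liver, spleen, eyes and prostate, and of embryonic fibroblasts (MEFs, connective tissue cells grown from mouse embryos) of wild-type and *Tug1*-/- mice, to learn what loss of the *Tug1* long noncoding RNA locus does in each. Wild-type animals carried 2 intact *Tug1* alleles, and in *Tug1*-/- animals (strain Tug1_tm1.1Vlcg) both alleles held a *lacZ* reporter in place of the gene body, behind the endogenous promoter and first exon, so the deletion was present in all cells and removed the RNA and the underlying DNA together. All samples were labelled male and on a C57BL/6J background (N3-C57BL/6J, no Neo), and MEFs were at passage 2 and came from E14.5 embryos that were littermates. There were 4 wild-type and 3 *Tug1*-/- testes samples, 3 and 2 of prostate, and 3 and 3 of each other tissue. The age of the animals that gave the organs was not given in the sources used here.

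The deposited table gives 1 pooled value per gene, genotype and tissue in FPKM, a read level scaled by transcript length and by sequencing depth. No value per sample and no read count was at hand, so depth is unknown, no difference could be set against the spread between mice, and no test was run. Every fold below therefore compares 2 pooled values, and where 2 values stand side by side the wild-type value comes first. Changes are given as log2((*Tug1*-/- + 0.1)/(wild type + 0.1)) of FPKM, which understates the change of low genes. A gene was counted as past 1.5-fold only where the mean of both genotypes was at least 1 FPKM. The labels held for the targeted gene: in testes the pooled *Tug1* value was 27.7 FPKM for wild type against 0.402 FPKM for the knockout, and *lacZ* was at 0.00629 and 54.3 FPKM. The labelled tissues also held, since the 2 marker genes of each of the 7 tissues had their highest wild-type level in that tissue. In testes 15143 genes had a mean of at least 1 FPKM, with a median log2 change of -0.06, and 1.92% of them were past 1.5-fold, 177 higher and 114 lower in *Tug1*-/-. The FPKM values of all genes summed to 728941 in wild-type and 680023 in *Tug1*-/- testes. Setting these totals equal moved the median change of testes genes by 0.10, to 0.04. RNA from whole testes cannot tell more cells of a type from more RNA per cell.

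All 10 Sertoli cell genes had a higher value in *Tug1*-/- than in wild-type testes, by 1.03 to 1.59 times. The median log2 change was 0.26 over all 10 and 0.25 over the 9 with a mean of at least 1 FPKM. That of all testes genes with such a mean was -0.06. A higher value in *Tug1*-/- of any size was seen in 36.4% of the testes genes with a mean of at least 1 FPKM. With the totals set equal this share was 61.3%, and 9 of the 9 members with such a mean were higher. The differences were small: 9 of the 10 genes had a mean of at least 1 FPKM, and 0 of these 9 were past 1.5-fold, beside the 1.92% of all testes genes given above. At a limit of 25% in place of 50%, 3 of the 9 (*Sox9*, *Amh* and *Cldn11*) were higher, against 5.42% of the testes genes that were higher by that much. *Amh* had a mean of 1.12 FPKM, and its log2 change of 0.36 was 0.21 with a pseudocount of 1, below that limit.

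**Figure D1:**
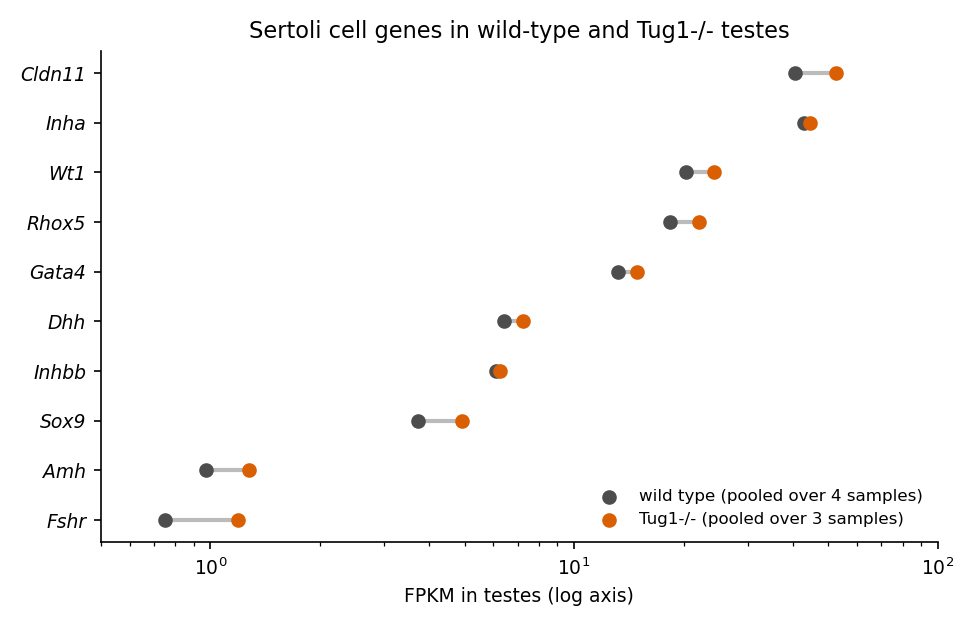
FPKM of the 10 Sertoli cell genes in testes on a log axis, with 1 point for the pooled wild-type value (grey) and 1 for the pooled *Tug1*-/- value (orange) of each gene. The *Tug1*-/- point lies to the right of the wild-type point for all 10 genes, with the widest gap for *Fshr* and nearly touching points for *Inha* and *Inhbb*.

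The sequences just before the start sites of 3 of these genes are shown first, chosen by their change in testes: *Fshr* had the largest fold, *Cldn11* the largest difference in FPKM and *Inhbb* the smallest fold. RefSeq promoters on GRCm38.p6 were matched for 6 of the 10 genes (*Inha*, *Inhbb*, *Cldn11*, *Dhh*, *Fshr* and *Rhox5*). The *Inha* window lies partly in an exon of *Inha* in GENCODE vM21 and the *Rhox5* window lies far upstream of the *Rhox5* start there, so motifs in these windows are not described. The 250 bases before the start site are chr17:89200676-89200925 on the minus strand for *Fshr*, chr3:31149670-31149919 on the plus strand for *Cldn11* and chr1:119422249-119422498 on the minus strand for *Inhbb*, and no exon annotated in GENCODE vM21 lies in these windows. Capitals mark the letters of any motif searched.
Fshr: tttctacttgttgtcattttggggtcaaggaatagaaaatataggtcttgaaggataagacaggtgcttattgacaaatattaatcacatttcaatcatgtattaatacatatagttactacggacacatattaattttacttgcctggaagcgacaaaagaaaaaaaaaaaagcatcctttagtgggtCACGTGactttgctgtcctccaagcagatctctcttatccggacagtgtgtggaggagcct
Cldn11: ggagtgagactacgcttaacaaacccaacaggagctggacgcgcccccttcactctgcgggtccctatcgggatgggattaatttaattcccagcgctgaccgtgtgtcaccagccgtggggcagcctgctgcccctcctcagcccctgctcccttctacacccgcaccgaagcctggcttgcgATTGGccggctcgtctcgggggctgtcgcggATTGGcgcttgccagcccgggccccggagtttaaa
Inhbb: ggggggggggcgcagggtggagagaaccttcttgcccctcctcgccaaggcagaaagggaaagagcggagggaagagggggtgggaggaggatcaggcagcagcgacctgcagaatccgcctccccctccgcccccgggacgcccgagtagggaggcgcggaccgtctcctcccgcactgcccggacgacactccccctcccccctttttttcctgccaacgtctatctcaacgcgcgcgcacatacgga

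The windows were searched on both strands for 6 short motifs, and each count of windows below is over all 32851 promoter windows of this length. The E-box, CACGTG, which many basic helix-loop-helix factors bind, was in 6.02% of all windows. The *Fshr* window held 1 E-box, beginning 61 bases before the start site. The CAAT box, CCAAT or ATTGG on the other strand, was in 33.8% of all windows. The *Cldn11* window held it as ATTGG, at 66 and at 35 bases before the start site. The GATA motif AGATAA was in 9.99% of all windows, the SOX motif ACAAT in 27.7%, the full cAMP response element TGACGTCA in 1.55% and the TATA box, searched as TATAAA, in 12.4%. None of the 6 was in the *Inhbb* or the *Dhh* window. These matches describe letters and not binding.

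Among the transcription factors, *Sox9*, which sets and holds Sertoli cell identity, was at 3.71 FPKM in wild-type testes and at 4.91 FPKM without *Tug1* (log2 change 0.39). *Wt1*, a zinc finger factor that Sertoli cells need to keep their identity, was at 20.3 and 24.2 FPKM, a log2 change of 0.25. *Gata4*, which acts in Sertoli and Leydig cells, was at 13.2 and 14.9 FPKM, a log2 change of 0.16. The order by level, *Wt1* over *Gata4* over *Sox9*, was the same in either genotype.

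Of the secreted factors, *Inha*, the alpha subunit that inhibins share, had the highest wild-type level of the 10 genes, and its values of 42.8 and 44.7 FPKM differed by a log2 change of 0.06. *Inhbb*, the beta subunit of inhibin B and of activin B, was at 6.09 and 6.26 FPKM, a log2 change of 0.04. The subunits of inhibin B thus had the 2 smallest changes of the 10 genes. *Dhh*, the hedgehog ligand that Sertoli cells send to Leydig and peritubular myoid cells, was at 6.40 and 7.25 FPKM, a log2 change of 0.18. *Dhh* overlaps *Rhebl1* on the same strand and *Gm49442* on the other strand in GENCODE vM21, and the library kit named does not keep the strand, so its value can hold reads of these genes. *Amh*, the hormone with which fetal Sertoli cells remove the Müllerian ducts, was low, at 0.972 and 1.27 FPKM, a log2 change of 0.36.

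*Fshr*, the receptor through which FSH reaches Sertoli cells, had the lowest level of the 10 genes in either genotype and the largest fold, with 0.751 FPKM in wild-type testes against 1.19 FPKM without *Tug1*. Its fold was 1.59 and its log2 change 0.60, but its mean of 0.973 FPKM lay just under the limit of 1 FPKM. Counted without that limit it was the 1 member past 1.5-fold, beside 5.03% of all testes genes with a value above 0. *Cldn11*, whose protein forms the tight junction strands of the blood-testis barrier, had the largest difference in FPKM, from 40.4 in wild type to 52.6 in *Tug1*-/-, a log2 change of 0.38. *Rhox5*, a homeobox gene on the X chromosome that androgen turns on in Sertoli cells, was at 18.3 and 22.1 FPKM, a log2 change of 0.27. Among 31 *Rhox* genes listed in the table, 4 had a mean of at least 1 FPKM in testes, and the 2 with the highest levels were *Rhox5* and *Rhox8*, which Sertoli cells also express and which was at 10.7 and 13.2 FPKM (log2 change 0.29). Several *Rhox2*, *Rhox3* and *Rhox4* genes are near-identical copies, and their values are uncertain.

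**Figure D2:**
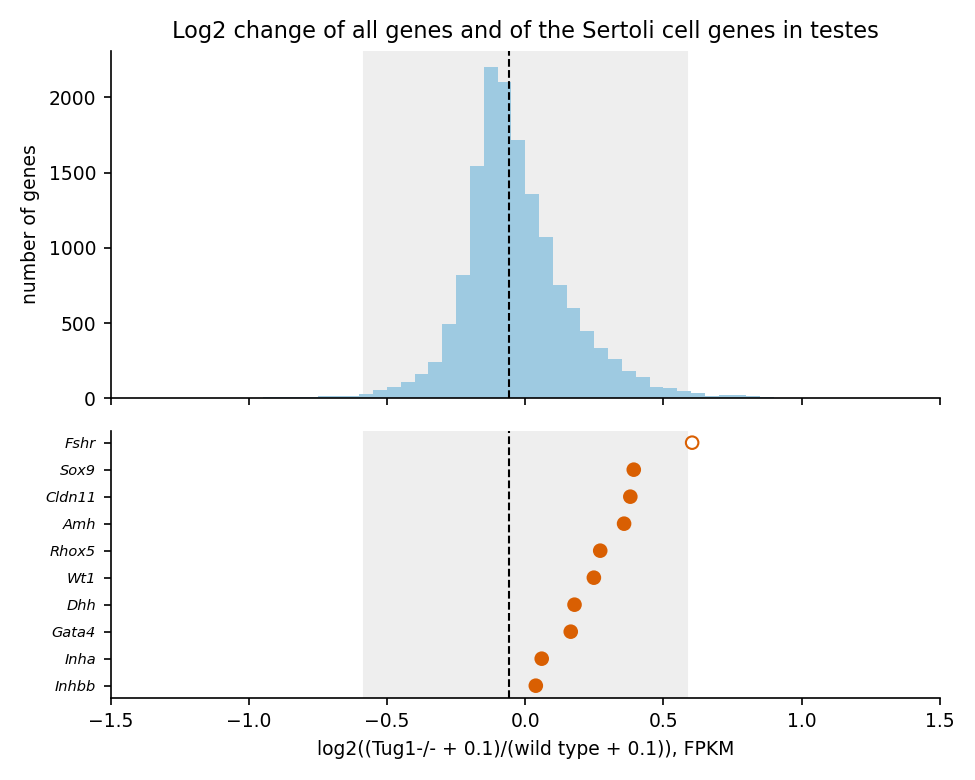
Upper panel, number of genes with a mean of at least 1 FPKM in testes in bins of their log2 change (15108 genes shown, with 13 lower and 22 higher than the axis). Lower panel, the log2 change of each Sertoli cell gene, with an open circle for *Fshr*, whose mean is under 1 FPKM. The dashed line is the median of all genes (-0.06) and the grey band spans 1.5-fold in either direction. The 10 points lie to the right of the dashed line, from 0.04 to 0.60.

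A list of 20 further Sertoli cell genes was set beside the 10. It was chosen with earlier results of these data known, so it is no independent check of the direction. Of the 20, 17 had a mean of at least 1 FPKM in testes. Of these 17, 15 had a higher and 2 a lower value in *Tug1*-/-, with a median log2 change of 0.21. Those past 1.5-fold were 2, both higher, where 1.92% of all testes genes were past that limit in either direction. *Shbg*, whose Sertoli cell product binds androgen, was at 5.22 and 9.20 FPKM, a log2 change of 0.80. *Vim*, the intermediate filament vimentin, was at 32.8 and 51.1 FPKM, a log2 change of 0.64, but it is made by many somatic cells. The lower genes of the 17 were *Slc38a5*, a glutamine transporter (5.74 and 4.85 FPKM), and *Dmrt1*, a transcription factor of Sertoli and germ cells (9.48 and 9.26 FPKM). Without the limit of 1 FPKM, *Gdnf* and *Krt18* were also lower, and 16 of the 20 were higher, with a median of 0.19. With the genotype totals set equal, which raises the change of each gene by about 0.10, 16 of the 17 were higher and the median was 0.31, where 61.3% of all testes genes were higher in place of 36.4%.

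The signaling partners of the secreted factors were less uniform. Of 15 genes of the inhibin, activin and AMH pathway, 12 had a mean of at least 1 FPKM, of which 8 were higher and 4 lower, with a median of 0.12. *Smad3*, which carries activin signals to the nucleus, was the 1 gene past 1.5-fold, at 1.99 and 3.30 FPKM (log2 change 0.70). Of all testes genes, 1.92% were past that limit in either direction. Receptors of the members' products were picked after their values were seen: *Amhr2*, the receptor of AMH, was at 104 and 126 FPKM, *Acvr2a*, an activin receptor, at 10.6 and 9.35 FPKM, and *Ptch1*, a receptor of Dhh, at 1.60 and 1.88 FPKM. Of 13 hedgehog pathway genes, 8 had a mean of at least 1 FPKM, 5 of them higher and 3 lower, and 0 were past 1.5-fold. *Sufu*, which restrains the GLI factors and had the highest level of these, was at 115 and 100 FPKM. With the totals set equal, 9 of the 12 and 6 of the 8 were higher, again beside 61.3% of all genes.

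Other genes of cell junctions lay in both directions. Of 12 genes of Sertoli cell junctions, 11 had a mean of at least 1 FPKM, 5 higher and 6 lower, with a median of -0.03. Past 1.5-fold were 0 of the 11, beside 1.92% of all testes genes. With the totals set equal 8 of the 11 were higher, beside the 61.3% of all genes. *Ctnnb1*, which links cadherins to actin, was at 50.8 and 55.0 FPKM. *Cldn3*, another claudin of the barrier, was at 42.6 and 37.3 FPKM. Both overlap other annotated genes.

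Genes of other testis cells also differed in their pooled values. Of all testes genes with a mean of at least 1 FPKM, 36.4% were higher, and 61.3% with the totals set equal. Of 8 Leydig cell markers, 7 were higher in *Tug1*-/-, with a median of 0.35, and they summed to 1015 and 1431 FPKM. *Insl3*, the peptide hormone of Leydig cells, was at 756 and 1131 FPKM, and *Cyp17a1*, an enzyme of androgen synthesis, at 95.1 and 108 FPKM. *Insl3* overlaps *Jak3* on the same strand. All 5 peritubular myoid markers were higher, with a median of 0.14 and sums of 38.7 and 44.1 FPKM, among them *Acta2* (22.1 and 25.7 FPKM) and *Tagln* (8.45 and 9.32 FPKM), contractile genes. Of 6 macrophage markers found, 5 had a mean of at least 1 FPKM and all 5 were higher, with a median of 0.33 and sums of 22.2 and 28.3 FPKM over the 6. *Mrc1*, the mannose receptor, was at 8.14 and 10.7 FPKM, and *C1qa*, a complement gene, at 7.32 and 9.25 FPKM. Of 5 endothelial markers 2 had a mean of at least 1 FPKM, *Vwf* (4.43 and 3.89 FPKM) and *Cdh5* (1.45 FPKM in wild type, log2 change 0.29), and the sums were 8.18 and 8.34 FPKM. With the totals set equal, 7 of 8 Leydig, 5 of 5 myoid, 5 of 5 macrophage and 1 of 2 endothelial markers were higher.

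The medians of the germ cell markers followed the order of the stages. Of 6 spermatogonia markers with a mean of at least 1 FPKM, 5 were higher, with a median of 0.12, and *Dazl*, an RNA-binding protein of germ cells, was at 55.9 and 59.1 FPKM and *Uchl1*, a ubiquitin hydrolase, at 40.9 in each genotype. Of 7 spermatocyte markers 3 were higher and 4 lower, with a median of -0.05, where *Tex101* was at 172 and 166 FPKM and *Sycp3*, of the synaptonemal complex, at 146 and 149 FPKM. All 5 round spermatid markers were lower, with a median of -0.12, where *Crem*, a transcription factor of spermatids, was at 267 and 245 FPKM and *Acrv1*, of the acrosome, at 246 and 226 FPKM. All 8 elongating spermatid markers were lower, with a median of -0.21 and sums of 45772 and 39223 FPKM. *Prm2*, a protamine that packs sperm DNA, was at 12141 and 9957 FPKM, and *Tnp1*, a transition protein, at 9432 and 8161 FPKM. With the totals set equal, 6 of 6 spermatogonia, 6 of 7 spermatocyte, 2 of 5 round spermatid and 0 of 8 elongating spermatid markers were higher. Of all testes genes, 61.3% were higher in that setting, in place of 36.4%. Of the marker genes named here, *Tagln*, *Mrc1*, *Cdh5*, *Uchl1*, *Sycp3*, *Crem* and *Tnp1* overlap other annotated genes, whose reads their values can hold. The sum of the 10 Sertoli cell genes went from 153 FPKM in wild type to 179 FPKM in the knockout, a ratio of 1.17. That ratio was 1.29 for the further Sertoli genes, 1.41 for the Leydig cell markers and 0.857 for the elongating spermatid markers. The Leydig sums were mostly *Insl3*, at 756 of 1015 FPKM in wild type and 1131 of 1431 FPKM in *Tug1*-/-. The other sums also rest most on genes with high levels. *Clu* gave 475 of 1221 and 601 of 1573 FPKM of the further Sertoli sums. *Cldn11* gave 40.4 of 153 and 52.6 of 179 FPKM of the sums of the 10 genes. The part of the mix of testis cells in the values of the Sertoli cell genes was not tested. Markers of the epididymis, the duct next to the testis, each had a mean under 1 FPKM. The 5 summed to 0.208 FPKM in wild type and to 1.27 FPKM in *Tug1*-/-. *Lcn5* was listed at 0 in wild type and at 0.833 FPKM in *Tug1*-/-, and *Crisp1* was at 0.141 and 0.187 FPKM.

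**Figure D3:**
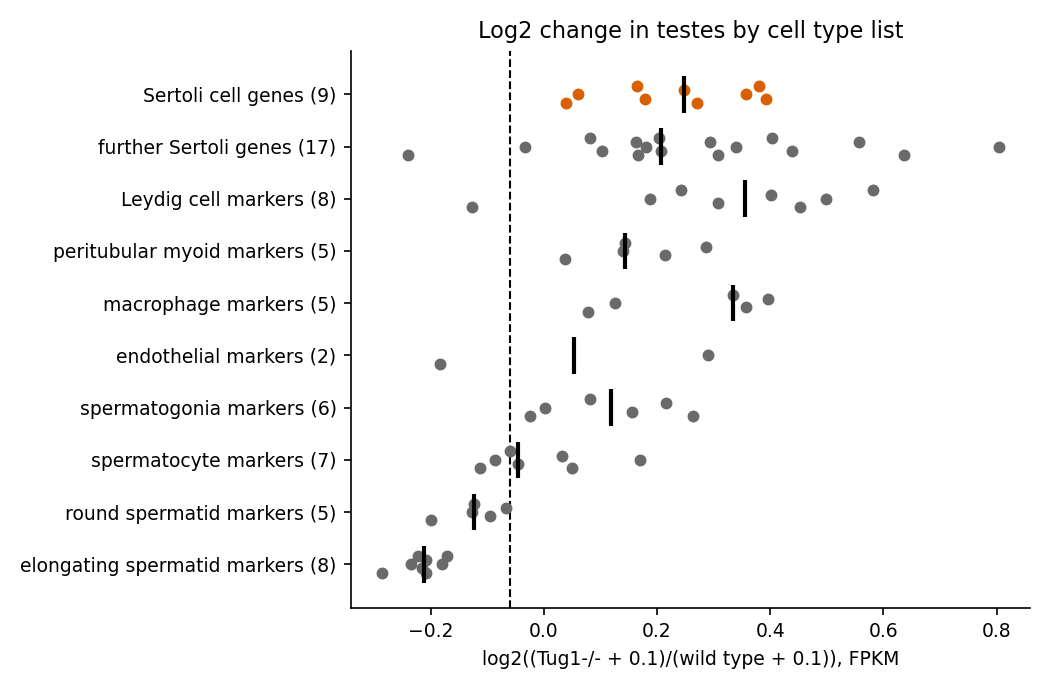
Log2 change in testes of the genes with a mean of at least 1 FPKM in each cell type list (number of genes in brackets), 1 point a gene, with a black bar at the list's median and a dashed line at the median of all genes (-0.06). The 9 Sertoli cell genes (orange) have a median of 0.25, and the 8 elongating spermatid markers have one of -0.21.

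To compare levels between tissues, each FPKM value was divided by the total of its genotype and tissue and multiplied by 1000000 (share units), since totals in wild type ran from 378014 in eyes to 1124495 in liver. With 1 pooled value per tissue, no spread was at hand to say which neighbors in these orders differ. In wild type, 7 of the 10 genes had their highest level in testes. *Fshr* was nearly restricted to testes, which held 98.9% of its summed level over the 7 tissues, and it was at 0.00458 FPKM or lower in each other tissue, listed at 0 in wild type in 4 of them. Testes held 75.6% of that sum for *Rhox5* and 74.9% for *Inha*, whose next tissues were heart (4.61 share units against 25.1 in testes) and eyes (11.6 against 58.8). For *Cldn11* testes held 58.5%, with 55.4 share units against 38.5 in eyes. For *Wt1* it was 48.7%, with 27.9 share units against 13.5 in spleen.

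The remaining members were shared with other tissues. *Dhh* was at 8.78 share units in testes and 7.99 in eyes, and *Amh* at 1.33 and 1.32, so that testes led by 1.10 and 1.01 times. *Inhbb* was highest in MEFs, at 15.3 share units against 8.36 in testes. *Gata4* was highest in heart, where it drives heart muscle genes, at 86.7 share units against 18.2 in testes. *Sox9* was highest in eyes by this measure, at 12.0 share units, followed by prostate at 9.10 and testes at 5.10, while by FPKM it was highest in prostate (5.53 FPKM against 4.53 in eyes).

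**Figure D4:**
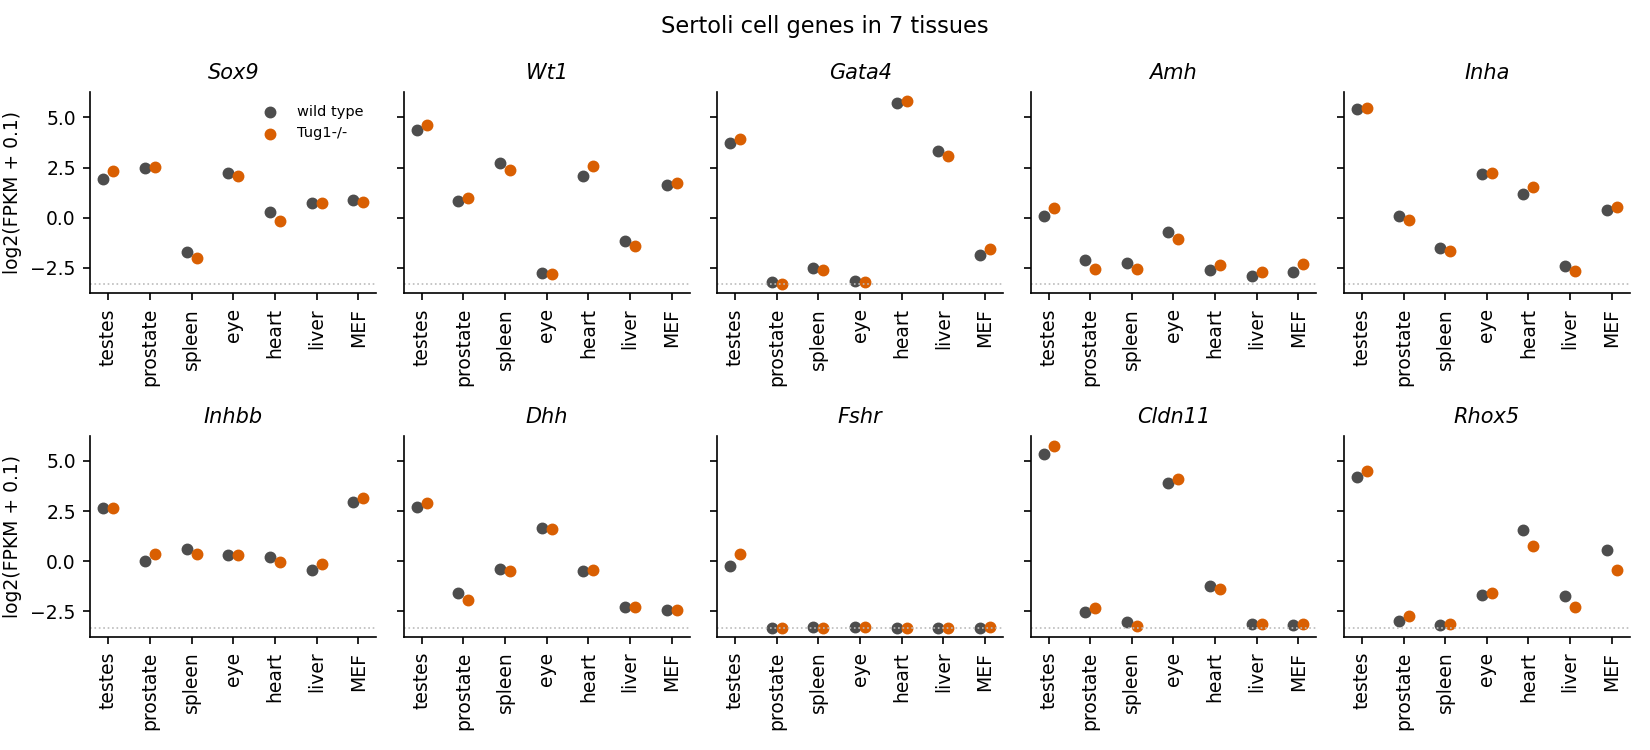
Level of each Sertoli cell gene in 7 tissues as log2(FPKM + 0.1), with the pooled wild-type value in grey and the pooled *Tug1*-/- value in orange; the dotted line is the level of a value of 0. *Fshr* leaves the dotted line visibly in testes alone, *Gata4* is highest in heart, and *Rhox5* lies lower in *Tug1*-/- in heart and MEFs.

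Outside testes, 21 of the 60 pairs of a member and a tissue had a mean of at least 1 FPKM, of which 13 were higher and 8 lower in *Tug1*-/-. By tissue, the higher members were 3 of 4 in heart, 3 of 5 in MEFs, 3 of 3 in prostate, 1 of 2 in liver, 3 of 5 in eyes and 0 of 2 in spleen. Of all genes with a mean of at least 1 FPKM, 58.6% were higher in heart, 49.8% in MEFs, 39.1% in prostate, 45.5% in liver, 43.5% in eyes and 45.5% in spleen. Whether the members' direction differs between testes and these tissues was not tested. Past 1.5-fold were 2 pairs, both of *Rhox5* and both lower. In heart *Rhox5* was at 2.81 and 1.57 FPKM (log2 change -0.80), where 2.32% of all genes with a mean of at least 1 FPKM were past 1.5-fold. In MEFs it was at 1.36 and 0.644 FPKM (log2 change -0.97), where that share was 3.18%. Its mean in MEFs was 1.002 FPKM, just over the limit, and with a pseudocount of 1 FPKM neither pair was past 1.5-fold. In testes, where its level was several times higher, *Rhox5* lay the other way, as given above, and whether its changes differ between tissues was not tested.

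In heart, *Wt1*, a marker of the heart's outer layer, was at 4.15 and 5.91 FPKM (log2 change 0.50), *Inha* at 2.20 and 2.76 FPKM and *Gata4* at 52.8 and 55.9 FPKM. In prostate, where 3.08% of genes were past 1.5-fold, 3 members had a mean of at least 1 FPKM, and *Sox9* was at 5.53 and 5.61 FPKM, *Wt1* at 1.67 and 1.87 FPKM and *Inhbb* at 0.917 and 1.19 FPKM. In spleen, where the share was 6.02%, *Wt1* was at 6.44 and 5.18 FPKM and *Inhbb* at 1.43 and 1.16 FPKM, both lower. In eyes, where it was 3.51%, the 5 members with a mean of at least 1 FPKM differed by log2 changes of -0.11 to 0.24, the highest being *Cldn11* at 14.5 and 17.2 FPKM. In that tissue *Inha* was at 4.38 and 4.59 FPKM, *Sox9* at 4.53 and 4.19 FPKM, *Dhh* at 3.02 and 2.96 FPKM and *Inhbb* at 1.15 and 1.16 FPKM. In liver, where it was 4.81%, *Gata4* was at 9.91 and 8.45 FPKM and *Sox9* at 1.58 in each genotype. Setting the totals equal moved the median of all liver genes by 0.16 and that change of *Gata4* from -0.23 to -0.07. In MEFs, *Inhbb* was at 7.71 and 8.80 FPKM, *Wt1* at 2.99 and 3.24 FPKM, *Sox9* at 1.77 and 1.59 FPKM and *Inha* at 1.21 and 1.36 FPKM.

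The gene most like a member was sought by Pearson's r of log2(FPKM + 0.1) over the 14 values (7 tissues, 2 genotypes) among 16767 genes with a mean of at least 1 FPKM. The 14 values are 7 pairs from the same tissues, so r mainly reflects levels between tissues and is a description. The nearest gene of *Fshr* was *8030411F24Rik*, with r = 0.999, and 823 genes had r over 0.99 with it. That of *Cldn11* was *Elfn2* (r = 0.996), with 5 genes over 0.99, and no gene reached 0.99 with any of the other 8 members. Among the secreted factors, the nearest genes were *1700028K03Rik* for *Amh* (r = 0.983), *Prss35* for *Inhbb* (0.982) and *Pcnxl2* for *Dhh* (0.989). Among the transcription factors, they were *Ccbe1* for *Wt1* (0.967), *Itfg3* for *Gata4* (0.981) and *Nkiras2* for *Rhox5* (0.968). Of these nearest genes, *8030411F24Rik* was at 10.2 and 16.3 FPKM in testes (log2 change 0.67), and *Elfn2* at 15.6 and 12.7 FPKM (log2 change -0.30). These 2 lay in opposite directions, but the *Tug1*-/- values entered r, so their directions are not independent of how they were picked. Within the 10, the pair most alike was *Amh* and *Cldn11* (r = 0.953).

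In the deposited table, on mm10, *Sox9* (ENSMUSG00000000567.5) lies at chr11:112782224-112787760 and *Wt1* (ENSMUSG00000016458.7) at chr2:105126529-105173616, both on the plus strand. *Gata4* (ENSMUSG00000021944.9) lies at chr14:63198922-63271692 on the minus strand. *Amh* (ENSMUSG00000035262.4) lies at chr10:80805248-80807648 on the plus strand. *Inha* (ENSMUSG00000032968.4) at chr1:75507077-75510366 on the plus strand and *Inhbb* (ENSMUSG00000037035.5) at chr1:119415465-119422248 on the minus strand share a chromosome. *Dhh* (ENSMUSG00000023000.4) lies at chr15:98893031-98898540 and *Fshr* (ENSMUSG00000032937.4) at chr17:88985170-89200612, both on the minus strand. *Cldn11* (ENSMUSG00000037625.6) lies at chr3:31149946-31164324 and *Rhox5* (ENSMUSG00000095180.2) at chrX:37804842-37808876, both on the plus strand. All 10 are annotated as protein-coding genes in GENCODE vM21, and *Dhh* is the 1 member that overlaps another gene there.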

How the data were processed

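RNA-seq of 42 samples, 22 wild-type and 20 *Tug1*-/-, was used. The submitters' processing notes name CASAVA 1.8.2, TopHat2 and Cuffdiff and the build mm10; the kit was TruSeq. The study's methods describe another route, through STAR and read counts, for its own calls. The authors deposited 1 table with 1 FPKM value per gene, genotype and tissue, in which replicates are combined; the unit follows from its Cuffdiff layout. Its columns of the authors' fold changes, test statistics, p-values and q-values were not used. The values of 2 further groups (brain) were not analysed here.

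The change was log2((*Tug1*-/- + 0.1)/(wild type + 0.1)), counted at a mean of at least 1 FPKM and past 1.5-fold (50%), with Python 3.11.15, numpy 2.4.6 and pandas 2.3.3. The computation was tested on simulated data. No test between genotypes was possible without values per sample. All members were named in every tissue. From each other list the text names genes past 1.5-fold, at most 5, or otherwise the 2 with the highest mean in testes, and for each member the nearest gene by r. A few genes that this rule names are not reported here. The members and lists were chosen with earlier results of these data known. Alternatives were pseudocounts of 1 and 0.01, equal totals, centring, other filters and fold limits of 2 and of 25%.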

Additional observations from a re-analysis of the deposited data

How the results depend on the processing

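No paired analysis was possible because the table holds 1 pooled value per genotype and tissue, and for the same reason no replicate could be left out. The count of 0 members past 1.5-fold in testes became 1 without a filter on low values (*Fshr*) and 3 at a fold limit of 25%. The count of 2 in the other tissues, both of *Rhox5*, became 4 at a limit of 25% and 0 at a limit of 2, with a mean of at least 5 FPKM, or with a pseudocount of 1. The pairs added at 25% were *Wt1* in heart (log2 change 0.50) and *Inhbb* in prostate (0.35), both higher. The share of all genes past 25% was not computed outside testes, so this count of 4 has no share to stand beside. With the totals set equal, the median log2 change in testes moved from 0.25 to 0.35 for the members and from 0.21 to 0.31 for the further Sertoli genes. The change of *Tug1* was -4.36 with a pseudocount of 1 and -6.07 with one of 0.01. The changes of single members in testes ran from 0.03 to 0.71 over 4 alternatives, and 30 of 40 values moved by under 0.1; none of these alternatives could turn a positive change negative, so their sign says nothing about stability. Depth is unknown, so low values such as those of *Fshr* and *Amh* have no stated precision.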
